A study of Homo sapiens with 4 samples.

Results

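The class 2 classifier genes of uveal melanoma are CDH1, ECM1, HTR2B and RAB31, whose mRNA is known to be high in the metastasis-prone class of this tumour of the eye's pigment cells. They were followed in the uveal melanoma cell line 92.1 by RNA sequencing. The members are defined by the classifier's gene names and not by a threshold on these values, although earlier results of these data were known when the set was chosen. Of the 4 genes, 3 were among the 11650 genes with a value, and CDH1 had none and was not analysed here. The study comprised 2 libraries from parental 92.1 cells and 2 libraries from a resistant derivative of the line. The labels do not name the agent to which the cells are resistant. They give neither a dose nor whether the derivative is a single clone. Nothing in the labels places the 2 libraries of a group in separate cultures, so the p-values below reflect variation among these libraries alone, and that variation may be technical. The titles name 92.1 for all libraries, although the cell line label differs from sample to sample.

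Uveal melanomas are sorted by a clinical expression test into a low-risk class 1 and a high-risk class 2, the second of which is closely tied to loss of the deubiquitinase BAP1. The test reads genes that are higher in one class or the other against control genes that serve as its reference. Among the class 2 genes, HTR2B encodes the serotonin receptor 5-HT2B, which signals through G proteins of the Gq family, the family that is mutated in most uveal melanomas. RAB31 encodes a small GTPase of the RAB5 subfamily that acts in traffic between the Golgi apparatus and endosomes. ECM1 encodes a secreted glycoprotein of the extracellular matrix, and CDH1 encodes E-cadherin, the adhesion molecule of epithelial junctions.

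Values are FPKM, in which the fragments of a gene are divided by transcript length and by the library's mapped total, so levels can be compared between genes. The depth behind them is unknown, because low values showed no clear step worth 1 fragment: among genes with 1 transcript, the fullest window of 1% width in FPKM times transcript length held 3 to 5 of the 26 to 46 low values of a library. A total of 10271 genes averaged at least 1 FPKM and were tested. Over these genes, which are not independent, log2 values of the 2 parental libraries correlated at 0.971, those of the 2 resistant libraries at 0.945 and those of different groups at 0.925 to 0.952. The median gap between the 2 replicates of a gene was 0.134 on the log2(FPKM + 1) scale in parental and 0.288 in resistant libraries. All 12 melanocyte lineage genes checked against the pigment cell label had a value. Their summed level, most of it from the pigment enzyme gene TYRP1 at 1480 to 2140 FPKM, was 2440 to 2730 FPKM in parental and 2370 to 3120 FPKM in resistant libraries. The list's median log2 fold change was -0.38, with 6 genes lower and 2 higher without overlap. Over all tested genes, 31.8% were lower and 19.1% higher without overlap. In limma, the linear model used throughout, 0 passed at an adjusted p of 0.05. At an unadjusted limma p under 0.05, 4 of the list were lower, against 10.2% of all tested genes. DCT, another pigment enzyme gene, was the furthest from 0, at 4.88 and 5.46 FPKM in parental and 0.486 and 0.517 FPKM in resistant libraries (log2 fold change -2.04 ± 0.17 SE, limma adjusted p = 0.0544). Its resistant mean was under 1 FPKM, so it was tested through the parental group alone. The lineage factor MITF was lower in both resistant libraries as well, at 9.64 and 31.8 FPKM against 35.3 and 37.4 FPKM in parental libraries. Its log2 fold change was -1.0 ± 0.52 (SE, limma adjusted p = 0.403), with resistant replicates far apart. The lineage factor SOX10 and the melanosome protein gene OCA2 were also lower in both, with -0.58 and -0.68. The part of these lineage differences in the results for the class 2 genes was not tested.

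The 3 measured class 2 genes did not lie in 1 common direction. RAB31 was higher in each resistant library than in either parental one, with a mean of 14.8 ± 12.0 against 2.08 ± 1.77 FPKM (SD, n = 2 each). ECM1 was lower in both, with 1.47 ± 0.115 against 3.09 ± 0.337 FPKM (SD, n = 2 each). HTR2B, by level the most abundant of the 3, stood at 30.6 ± 7.22 against 28.6 ± 0.319 FPKM (SD, n = 2 each), with overlapping groups. None of the 3 passed limma, which shares information on spread between genes, at an adjusted p of 0.05 over all tested genes. In all, 0.0584% of tested genes passed, 0.0487% as higher and 0.00974% as lower in resistant cells. Groups that do not overlap were common in this comparison, at 19.1% of tested genes in the higher direction and 31.8% in the lower. RAB31 and ECM1 therefore shared that property with 51.0% of all genes. Each of the 3 genes had a mean above 1 FPKM in either group alone, so none entered the test through 1 group only.

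**Figure D1:**
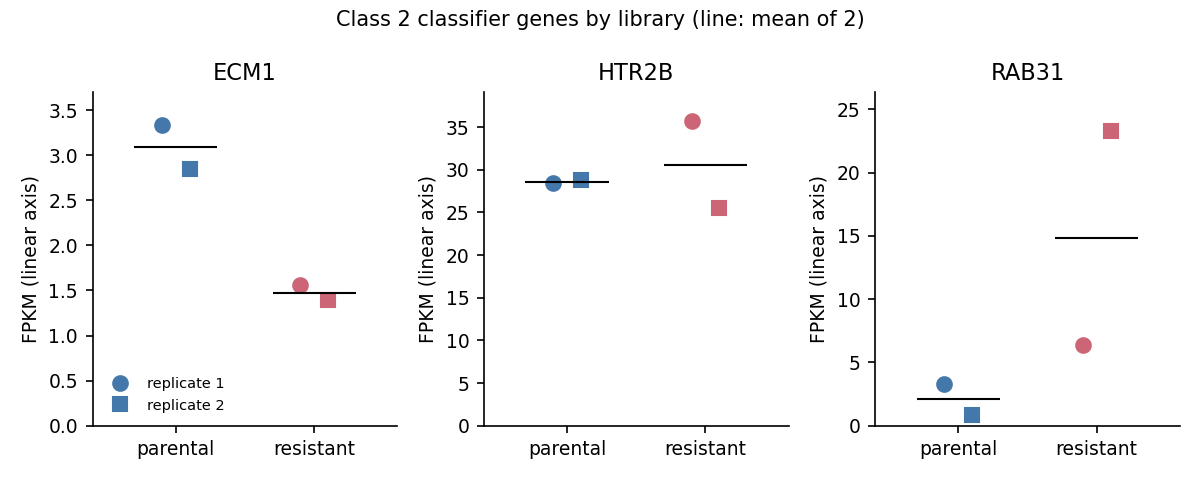
FPKM of ECM1, HTR2B and RAB31 in each library on linear axes that start at 0, with circles for replicate 1, squares for replicate 2 and a black line for the mean of 2. ECM1 is lower and RAB31 higher in both resistant libraries, HTR2B overlaps between groups, and the replicates of RAB31 lie far apart in both groups.

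RAB31 showed the largest difference of the 3 and also the largest replicate spread. Its level was 3.33 and 0.824 FPKM in parental replicates 1 and 2, and 6.36 and 23.3 FPKM in resistant replicates 1 and 2. Both resistant values thus lay above both parental values, but the 2 parental libraries differed 4.04-fold from each other and the 2 resistant libraries 3.67-fold. On the log2 scale the lower resistant library and the higher parental library were closer to each other than either was to its own replicate. In limma the log2 fold change of resistant over parental was 2.25 ± 0.68 (SE), with an adjusted p of 0.234 and an unadjusted p of 0.0192. The 95% interval of the log2 difference ran from 0.54 to 3.96. An unadjusted p under 0.05 was reached by 16.2% of tested genes, 6.06% in the higher and 10.2% in the lower direction. That split turned to 916 higher and 886 lower genes after median-of-ratios scaling, against 622 and 1045 without scaling.

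The size of the RAB31 difference was unusual among the 10271 tested genes, and so was its spread. Only 9 genes had a larger log2 fold change in the higher direction, and 0.146% of genes had a larger absolute one. At the same time 1.18% of genes had a larger pooled SD between replicates than the 1.06 of RAB31 on the log2 scale, where the median gene had 0.19. A replicate gap over 1 on the log2 scale occurred in both groups for 93 genes, or 0.905% of those tested, and RAB31 was among them with gaps of 1.25 and 1.72. By unadjusted p, 842 genes ranked ahead of it. Leaving out resistant replicate 2, the highest library, brought its log2 fold change to 1.39 (limma adjusted p = 0.3).

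**Figure D2:**
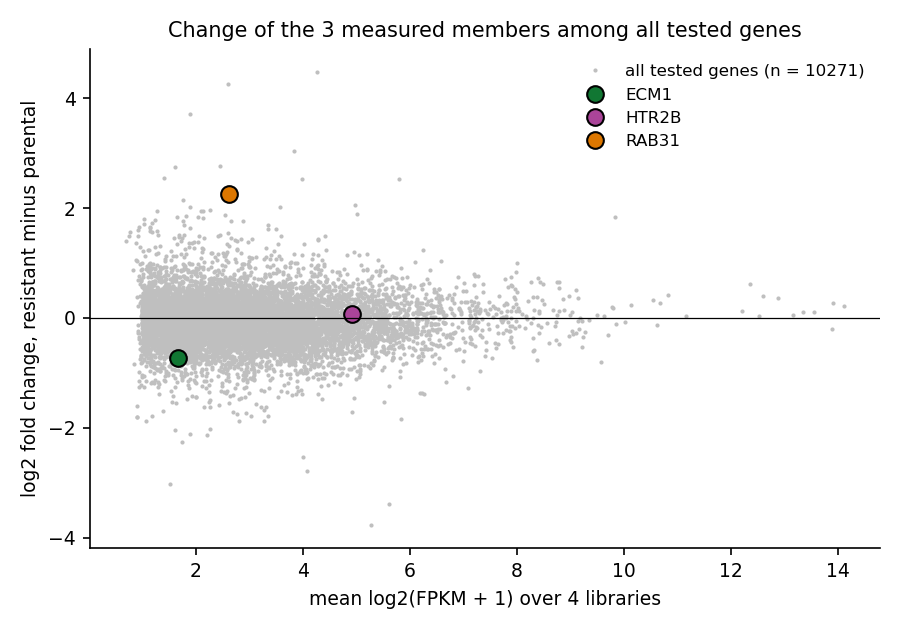
Log2 fold change of resistant minus parental (y axis) against the mean log2(FPKM + 1) of the 4 libraries (x axis) for 10271 tested genes in grey, with the 3 measured class 2 genes as large points. RAB31 lies at 2.25 near the upper edge of the cloud, ECM1 at -0.72 in its lower part and HTR2B at 0.07 in its centre.

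**Figure D3:**
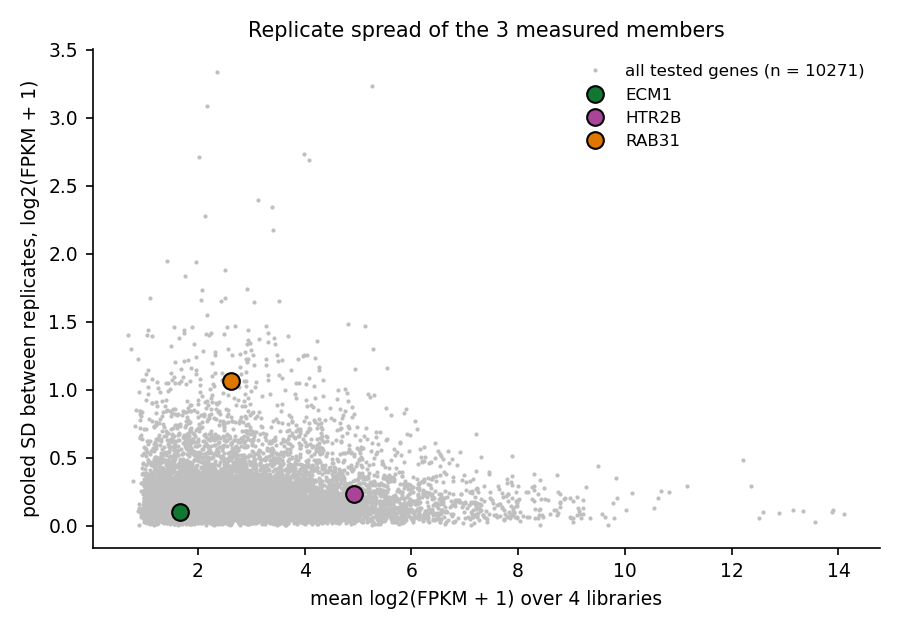
Pooled SD between replicates (y axis, log2 scale) against the mean log2(FPKM + 1) (x axis) for the same genes. RAB31 lies at 1.06, above most genes of like level, while ECM1 lies at 0.10 and HTR2B at 0.24.

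RAB31 is annotated on chromosome 18 from 9708165 to 9862551 on the plus strand of GRCh38, with 12 transcripts in GENCODE release 29. None of its 5647 stretches of 50 bases occurs in a transcript of another gene of that release, so its nearest relatives do not share fragments of that length with it. Before it, TWSG1 and PPP4R1 overlapped between groups, with log2 fold changes of -0.67 and -0.02. After it, VAPA, which encodes a membrane contact protein of the endoplasmic reticulum, and NAPG overlapped as well, with 0.04 and 0.31. PIEZO2, a mechanosensitive channel, was under the filter and lower in both resistant libraries, at 0.325 and 0.376 FPKM against 1.31 and 1.49 FPKM. Listed genes had a larger group mean of at least 0.5009 FPKM, so PIEZO2 had a value through the parental group alone. None of these 5 neighbours was higher in both resistant libraries, as were 19.1% of all tested genes.

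The other 5 genes of the RAB5 subfamily, which direct early endosome traffic, lay nearer to 0 than RAB31, and none passed limma (smallest adjusted p = 0.492). Of these, only RAB22A was also higher in both resistant libraries, as were 19.1% of all tested genes. RAB22A, the closest relative of RAB31, stood at 3.73 and 3.77 FPKM in parental and at 5.39 and 4.29 FPKM in resistant libraries (log2 fold change 0.29 ± 0.19 SE). RAB5C stood at 57.7 and 17.7 FPKM in parental and at 23.3 and 12.3 FPKM in resistant libraries. RAB5A was at 10.1 and 7.55 FPKM in parental and at 10.7 and 1.88 FPKM in resistant libraries. Both RAB5 genes thus overlapped between groups and, like RAB31, differed strongly within a group. Per length, RAB31 was the least abundant of the 6 in parental replicate 2 and the most abundant in resistant replicate 2. RAB5B and RAB21 had log2 fold changes of -0.35 and -0.12. The median over the 5 was -0.35, against -0.08 for all tested genes.

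Regulators and effectors of the subfamily gave a similar picture. Of 16 genes, 13 were tested and 0 passed limma in either direction, with a median log2 fold change of -0.26. Groups did not overlap for 8 of them, 2 higher and 6 lower. Over all tested genes 51.0% did not overlap, 19.1% in the higher and 31.8% in the lower direction. OCRL, an inositol phosphatase recruited to endosomes by RAB GTPases, was the furthest from 0, at 1.57 and 2.22 FPKM in parental and 7.26 and 4.27 FPKM in resistant libraries (log2 fold change 1.20 ± 0.28 SE, limma adjusted p = 0.176). Both resistant libraries lay above both parental ones. GAPVD1, an exchange factor for the subfamily, overlapped between groups at 1.94 and 2.45 against 2.45 and 3.29 FPKM. ANKRD27 and RIN3, which are also exchange factors, had -0.49 and -0.45. With a resistant mean of 0.78 FPKM, RIN3 was tested through the parental group alone. RABEP1, an effector of RAB5, was the most abundant of the list at 11.0 and 11.3 FPKM in parental and at 8.56 and 7.5 FPKM in resistant libraries.

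Among cargoes and partners tied to RAB31, the mannose 6-phosphate receptors and the flotillins were measured and EGFR had no value. M6PR stood at 14.4 and 13.5 FPKM in parental and at 16.1 and 15.8 FPKM in resistant libraries. IGF2R, the larger receptor for the same sugar tag, overlapped between groups with a log2 fold change of 0.04 ± 0.36 (SE). FLOT1 and FLOT2, scaffold proteins of membrane domains, overlapped as well, with -0.08 and -0.15. None of the 4 passed limma (smallest adjusted p = 0.616).

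ECM1 was the class 2 gene with the smallest pooled SD between replicates, 0.10 on the log2 scale. Its level was 3.33 and 2.85 FPKM in parental replicates 1 and 2, and 1.56 and 1.39 FPKM in resistant replicates 1 and 2. The mean parental level was 2.1 times the resistant one, and the gap between groups was larger than either gap between replicates. The log2 fold change was -0.72 ± 0.17 (SE), with a 95% interval from -1.17 to -0.28. Its limma adjusted p was 0.182 (unadjusted p = 0.00796), and 448 genes had a lower p. The direction is opposite to that of RAB31. ECM1 lies on chromosome 1 from 150508062 to 150513789 on the plus strand of GRCh38, overlaps no other annotated gene, and none of its 3585 stretches of 50 bases occurs in another gene's transcripts.

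Of the 3 measured genes on each side of ECM1, PRPF3, TARS2 and ENSA were also lower in both resistant libraries, as were 31.8% of all tested genes. TARS2, the mitochondrial threonyl-tRNA synthetase that ends just before ECM1, stood at 4.96 and 5.34 FPKM in parental and at 3.12 and 2.94 FPKM in resistant libraries. ENSA, a regulator of the mitotic phosphatase PP2A, had a log2 fold change of -0.58 and the splicing factor PRPF3 of -0.41. RPRD2, the survival factor MCL1 and GOLPH3L overlapped between groups, with -0.35, -0.25 and 0.09. None of the 6 passed limma, and the smallest adjusted p among them was 0.222.

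The mRNAs of proteins known to bind ECM1 lay in both directions, and none passed limma (smallest adjusted p = 0.103). FBLN1, the matrix protein fibulin-1, stood at 26.1 and 23.3 FPKM in parental and at 15.4 and 14 FPKM in resistant libraries. Its log2 fold change of -0.71 ± 0.17 (SE) was close to that of ECM1 (limma adjusted p = 0.181). FN1, which encodes fibronectin, lay in the other direction, at 1.12 and 1.25 FPKM in parental and 9.02 and 5.12 FPKM in resistant libraries (log2 fold change 1.84 ± 0.28 SE, limma adjusted p = 0.103). GRN, the growth factor progranulin, was higher in both resistant libraries as well, at 30.2 and 22.9 against 18.1 and 17.2 FPKM. HSPG2, the proteoglycan perlecan, had a log2 fold change of 0.29, and PLSCR1, a phospholipid scramblase, overlapped between groups. LTBP1, a latent TGF-beta binding protein, was under the filter and lower in both resistant libraries, at 0.496 and 0.288 against 1.22 and 1.46 FPKM. Listed genes had a larger group mean of at least 0.5009 FPKM, so LTBP1 had a value through the parental group alone. Of 8 genes on the list, 5 were tested and 0 passed over all genes, with 3 higher and 1 lower without overlap and a median log2 fold change of 0.29. The shares over all tested genes were 19.1% higher and 31.8% lower without overlap.

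The basement membrane list, which shares HSPG2 with the binding partners, had 9 tested genes of 12 and 0 that passed limma. The laminin chain LAMB1 was the furthest from 0, at 21.4 and 21.8 FPKM in parental and at 8.35 and 6.79 FPKM in resistant libraries (log2 fold change -1.40 ± 0.18 SE, limma adjusted p = 0.0788). AGRN and LAMA5, the proteoglycan agrin and another laminin chain, had 0.64 and 0.50 with both resistant libraries above both parental ones. The collagen-binding protein SPARC, the most abundant of the list, overlapped between groups at 58.1 and 57.6 against 63.8 and 44.8 FPKM. Groups did not overlap for 4 higher and 2 lower genes, against 19.1% and 31.8% of all tested genes, and the list's median was 0.02. ECM1 was thus lower beside matrix genes that lay in either direction.

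HTR2B showed no difference beyond its spread. Its level was 28.4 and 28.8 FPKM in parental replicates 1 and 2, and 35.7 and 25.5 FPKM in resistant replicates 1 and 2, which enclose the parental values from above and below. The log2 fold change was 0.07 ± 0.21 (SE, limma adjusted p = 0.881), and the 95% interval of the log2 difference ran from -0.45 to 0.60. Only 10.4% of tested genes had a higher mean FPKM. Without resistant replicate 1 the log2 fold change turned to -0.16 (limma adjusted p = 0.344), and without resistant replicate 2 it was 0.31 (limma adjusted p = 0.232).

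HTR2B lies on chromosome 2 from 231108230 to 231125118 on the minus strand of GRCh38. It sits inside intron 16 of the longest coding transcript of PSMD1, a proteasome subunit gene that runs on the plus strand from 231056864 to 231172827. Of the 13 annotated PSMD1 transcripts, 1 holds an exon of 559 bases that lies wholly within the coding part of exon 4 of HTR2B, from 231108564 to 231109122. This stretch is 24.9% of the 2246 exonic bases of HTR2B, and fragments from it belong to one gene or the other by strand alone. The window chr2:231109093-231109152, read on the minus strand of GRCh38 and taken from the GENCODE transcript, shows where that stretch begins, with HTR2B-only bases in lower case and shared bases in capitals.
HTR2B exon 4: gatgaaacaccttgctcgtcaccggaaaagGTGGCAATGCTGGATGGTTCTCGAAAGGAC
The libraries were stranded by the labels' protocols, with the strand setting of the counting not given in the sources used here. PSMD1 itself stood at 28.8 and 32.7 FPKM in parental and at 27.1 and 44.8 FPKM in resistant libraries (log2 fold change 0.18 ± 0.27 SE, limma adjusted p = 0.77). The resistant library with the higher PSMD1 was thus the one with the lower HTR2B. The contribution of PSMD1 fragments to HTR2B was not tested. Of the other measured neighbours, the ribosome assembly protein NCL (nucleolin), ARMC9 and C2orf72, which was under the filter, were lower in both resistant libraries. Their log2 fold changes were -0.31, -0.27 and -0.49, and 31.8% of all tested genes were lower without overlap. Listed genes had a larger group mean of at least 0.5009 FPKM, so C2orf72 had a value through the parental group alone. ITM2C and PTMA (prothymosin alpha) overlapped between groups.

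HTR2B was the only one of 19 serotonin receptor, synthesis, transport and breakdown genes with a value, and the others, HTR2A and HTR2C among them, were not analysed here. Downstream of the receptor, the Gq alpha subunit GNAQ overlapped between groups and GNA11 was higher in both resistant libraries, and neither passed limma (adjusted p = 0.916 and 0.513). GNAQ stood at 12.4 and 12.6 FPKM in parental and at 11.7 and 12.6 FPKM in resistant libraries, and GNA11 at 5.64 and 5.9 against 6.3 and 8.54 FPKM. The phospholipases PLCB3 and PLCB4, which Gq activates, overlapped between groups with log2 fold changes of 0.03 and 0.13. The beta-arrestins, which bind activated receptors and end their G protein signal, were lower in both resistant libraries. ARRB2 was at 4.06 and 3.35 against 2.52 and 1.52 FPKM (log2 fold change -0.65 ± 0.23 SE, limma adjusted p = 0.282), and ARRB1 had -0.42 ± 0.24 (SE). Of 12 genes on this list 8 were tested, 0 passed limma, 1 was higher and 2 were lower without overlap, and the median was 0.08. The shares over all tested genes were 19.1% higher and 31.8% lower without overlap.

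CDH1 itself could not be described. Its relatives and regulators are given here for context and do not stand in for its level. Its neighbour and close relative CDH3, the P-cadherin gene, was lower in both resistant libraries, at 0.759 and 0.551 FPKM against 2.55 and 2.11 FPKM (log2 fold change -1.01 ± 0.17 SE, limma adjusted p = 0.124). With a resistant mean under 1 FPKM, CDH3 was tested through the parental group alone. CDH19, a cadherin known from Schwann cells and melanocytes, lay in the other direction, at 17.8 and 15.8 FPKM against 4.92 and 4.7 FPKM (log2 fold change 1.61 ± 0.18 SE, limma adjusted p = 0.0781). The other measured genes around the CDH1 locus on chromosome 16 were nearer to 0, with -0.09 for PRMT7, -0.26 for ZFP90, -0.34 for TANGO6, 0.16 for CHTF8 and -0.12 for UTP4. CDH2, the N-cadherin gene, had no value. Among the catenins that tie cadherins to actin, JUP (plakoglobin) was at 12.4 and 10.9 FPKM in parental and at 5.19 and 6.65 FPKM in resistant libraries. CTNNB1 and CTNNA1, the beta and alpha catenins, overlapped between groups with log2 fold changes of -0.03 and -0.06. CTNND1, which encodes p120 catenin, stood at 3.98 and 3.25 against 8.64 and 1.56 FPKM, so its resistant libraries lay on either side of both parental ones. Of 17 genes on the list 8 were tested, 0 passed limma, and 1 was higher and 2 were lower without overlap. The shares over all tested genes were 19.1% higher and 31.8% lower without overlap.

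Repressors of CDH1 transcription were present in both groups. Of the 6 tested, 3 were lower without overlap and 0 higher, where 31.8% of all tested genes were lower without overlap and 51.0% did not overlap in either direction. SNAI2, the most abundant, stood at 81.1 and 79.2 FPKM in parental and at 92.4 and 66.4 FPKM in resistant libraries. TWIST1 was at 15 and 11.6 against 10.8 and 11.5 FPKM (log2 fold change -0.22 ± 0.20 SE). ZEB1 and ZEB2 had -0.05 and 0.22 with overlapping groups, and TCF3 had -0.25. SNAI1 was under the filter, at 1.15 and 1.21 against 0.832 and 0.384 FPKM. Of the 8 listed genes, the 6 tested included 0 that passed limma (smallest adjusted p = 0.556), with a median of -0.09.

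Of 21 epithelial markers only 6 had a value, and the junction genes EPCAM, OCLN and CLDN1 had none. Levels of the 6 summed to 11.8 and 13.6 FPKM in parental libraries and to 23.1 and 29.8 FPKM in resistant ones. The keratins KRT8, KRT18 and KRT19 had log2 fold changes of 1.04, 1.20 and 1.65, with both resistant libraries above both parental ones. KRT8 and KRT19 had parental means of only 0.308 and 0.246 FPKM and were tested through the resistant group alone. Their direction was therefore favoured in advance, and both are part of the sum. KRT7 is part of it too, under the filter at 0.11 and 0.138 FPKM in parental and 0.568 and 1.87 FPKM in resistant libraries. KRT7 had a value through the resistant group alone, so its direction was fixed in advance. KRT18 had a parental mean of 2.96 FPKM. ESRP1, an epithelial splicing regulator, stood at 8.02 and 9.06 against 12.5 and 9.45 FPKM. Of the 4 tested, 0 passed limma (smallest adjusted p = 0.103). Fibroblast markers had a value for 3 of 10 genes and a summed level of 5.2 to 6.01 FPKM in parental and 7.34 to 9.59 FPKM in resistant libraries. Most of that sum was LUM, at 4.45 to 7.69 FPKM. The collagen gene COL1A2, under the filter, stood at 0.00848 and 0.00683 FPKM in parental and at 0.747 and 0.531 FPKM in resistant libraries. Listed genes had a larger group mean of at least 0.5009 FPKM, so COL1A2 had a value through the resistant group alone. Its direction was thus fixed in advance. Leukocyte markers had a value for 1 of 7, the lysosomal protein CD68, at 15.7 to 21 FPKM in parental and 4.97 to 7.24 FPKM in resistant libraries, and PTPRC had none. None of 5 endothelial markers had a value. Of 6 markers of retinal pigment epithelium 4 had one, with sums of 5.3 to 6.07 FPKM in parental and 3.3 to 4.91 FPKM in resistant libraries. RLBP1, with a resistant mean of 0.74 FPKM, was tested through the parental group alone. MERTK, under the filter at means of 0.696 and 0.328 FPKM in parental and resistant libraries, had a value through the parental group alone. The lower direction of both was thus favoured in advance, and both are part of the sums. Within that list TTR, the transthyretin gene, lay in the other direction and under the filter, at 0 and 0.035 FPKM in parental and at 0.553 and 0.847 FPKM in resistant libraries. Like COL1A2, it had a value through the resistant group alone. The part of other cell types in the RAB31 and ECM1 differences was not tested, and in bulk RNA fewer cells of a type and less RNA per cell cannot be told apart.

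**Figure D4:**
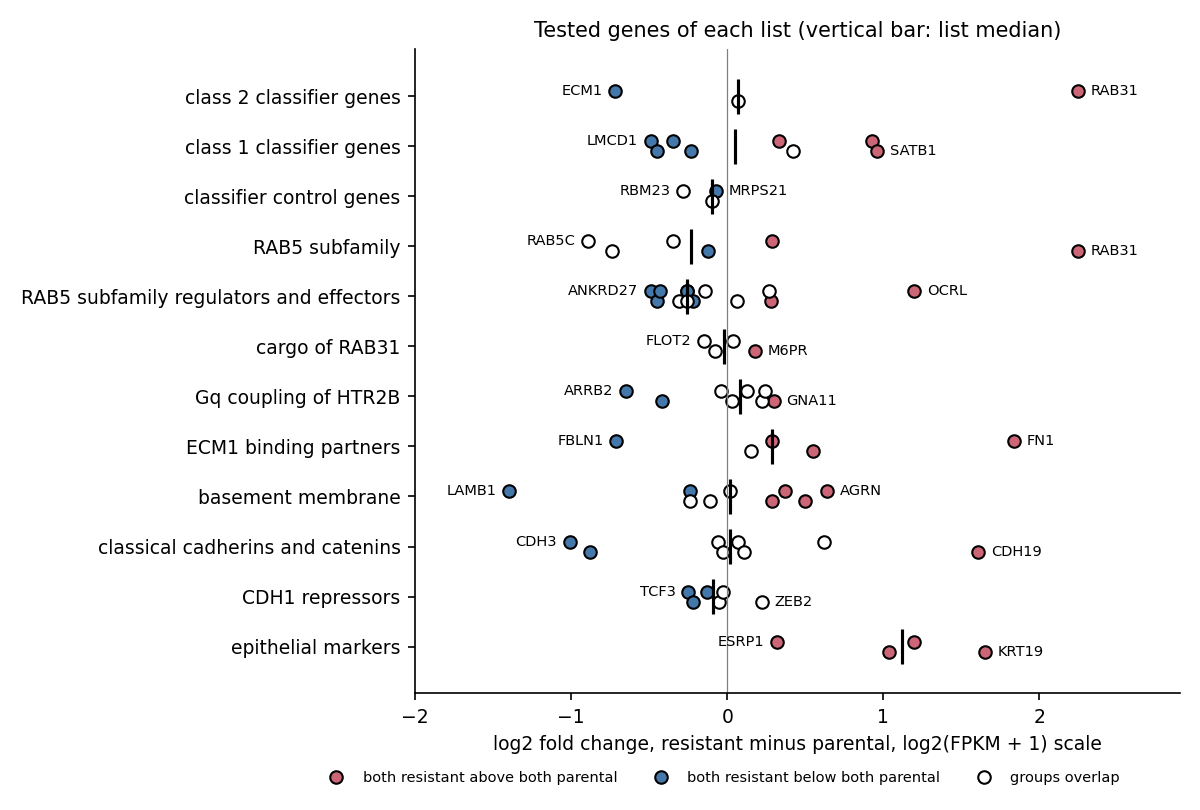
Log2 fold change of resistant minus parental (x axis) for each tested gene of 12 lists (rows), with red points where both resistant libraries lie above both parental ones, blue points where both lie below, open points where groups overlap, and a bar at each list's median. The outermost genes are named, and RAB31 at 2.25 lies apart from the other RAB5 subfamily genes.

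The clinical test sets its genes against 3 control genes, MRPS21, RBM23 and SAP130, and the same was done within each library here. MRPS21 was slightly lower in both resistant libraries and the other two overlapped between groups, with log2 fold changes of -0.07, -0.28 and -0.10 in that order (smallest limma adjusted p = 0.628). Their mean log2 FPKM came to 3.53 and 3.60 in parental libraries and to 3.60 and 3.16 in resistant ones, so resistant replicate 2 had the lowest reference. Relative to it, HTR2B stood at 1.30 and 1.25 in parental and at 1.55 and 1.51 in resistant libraries on the log2 FPKM scale. On this reference its groups no longer overlapped, but scaling all genes to the control genes left its limma adjusted p at 0.531. Subtracting the lower reference of resistant replicate 2 raises every gene of that library alike. The share of all genes without overlap on this reference was not computed. ECM1 stood at -1.79 and -2.09 in parental and at -2.97 and -2.68 in resistant libraries. RAB31 ran from -1.79 and -3.88 in parental to -0.93 and 1.38 in resistant libraries, so its replicates lay far apart in both groups here too. This scaling was chosen after the data were seen.

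The 8 class 1 genes, all of which had a value, also lay in both directions. Of these, 3 were higher and 4 lower without overlap, against 19.1% and 31.8% of all tested genes. None of the 8 passed limma. The median log2 fold change was 0.05, against 0.07 for the 3 class 2 genes and -0.08 for all tested genes. SATB1, a chromatin organizer, was the furthest from 0, at 0.996 and 0.492 FPKM in parental and 2.35 and 2.38 FPKM in resistant libraries (log2 fold change 0.96 ± 0.20 SE, limma adjusted p = 0.158). With a parental mean under 1 FPKM, SATB1 was tested through the resistant group alone. ROBO1, a guidance receptor, and LMCD1, a LIM-domain cofactor, had 0.93 and -0.49. ID2, an inhibitor of helix-loop-helix factors and the most abundant of the class 1 genes, varied within both groups, at 79.5 and 30.8 FPKM in parental and 47.2 and 94 FPKM in resistant libraries. BAP1 stood at 4.85 and 4.54 FPKM in parental and at 4.03 and 4.27 FPKM in resistant libraries (log2 fold change -0.15 ± 0.18 SE, limma adjusted p = 0.715). No class call was made from these values, since the test is calibrated on tumours.

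**Figure D5:**
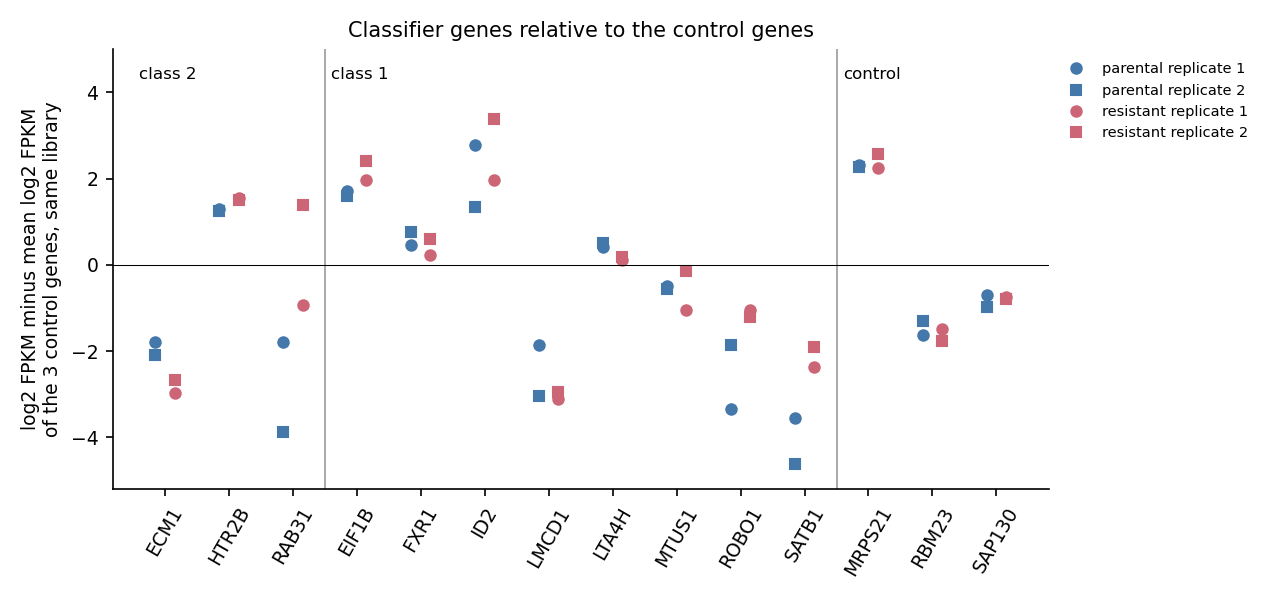
Log2 FPKM of each classifier gene minus the mean log2 FPKM of the 3 control genes in the same library (y axis), by gene (x axis), with parental libraries in blue, resistant libraries in red, circles for replicate 1 and squares for replicate 2. HTR2B lies above the mean of the controls in all 4 libraries, ECM1 is lower in resistant libraries, and RAB31 spreads from -3.88 to 1.38.

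Likeness of pattern was measured as the root mean square difference of log2(FPKM + 1) profiles centred over the 4 libraries, as a description only. Profiles were not scaled, so a gene that varies little has more others within a fixed distance than one that varies much. HTR2B had the most of the 3, with 788 of 10270 other genes within 0.1. Its nearest were TCTN3, PIK3CA and RCOR1 at 0.00969, 0.0105 and 0.011. TCTN3 stood at 20.2 and 20.9 FPKM in parental and at 25.8 and 18.1 FPKM in resistant libraries. For ECM1, 206 genes lay within 0.1, and the nearest were POU4F1, BLMH and the ECM1 binding partner FBLN1 at 0.0147, 0.0153 and 0.0158. RAB31 had 0 genes within 0.1. Its nearest were the linker histone gene H1-4 at 0.511, the aldo-keto reductase AKR1B10 at 0.523 and the actin-associated LIMCH1 at 0.53. In parental libraries AKR1B10 stood at only 0.135 and 0.0433 FPKM and LIMCH1 at 0.874 and 0.382 FPKM. Both were thus tested through the resistant group alone, so their direction was favoured in advance. H1-4 stood at 2.8 and 2.11 FPKM in parental and at 7.55 and 14.9 FPKM in resistant libraries, so it was also highest in resistant replicate 2 but with a narrower parental gap.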

How the data were processed

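RNA of 2 parental and 2 resistant libraries was sequenced, and groups and replicate numbers follow the sample titles. The authors deposited FPKM, named as such per the file headers, with 1 value per gene and library. The build was hg38 per the submitters' processing notes. Aligner, quantification program, annotation release and strand setting: not given in the sources used here. Every gene listed had a larger group mean of at least 0.5009 FPKM, so a minimum near that value seems to have been applied before deposit. No count model was used, since FPKM are not counts.

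Values entered as log2(FPKM + 1) without rescaling. The 10271 genes averaging 1 FPKM or more over 4 libraries were compared, resistant against parental, by two-sided limma 3.58.1 (R 4.3.3) with an intensity trend of the variance and Benjamini-Hochberg adjustment over all of them at 0.05. This scale understates the changes of low genes. With 2 libraries a group, the smallest p of a two-sided exact permutation test is 0.333, which RAB31 and ECM1 reached (HTR2B 1.0).

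Current gene symbols were matched by identifier (11575 of 11650 found, the rest named by release 29 or by identifier) and positions from GENCODE release 29 on GRCh38. Sequence comparison used that release's transcripts. Figures were drawn with Python 3.11.15. The classifier genes, the lists and the tests were chosen with earlier results of these data known. Named were the class 2 genes, up to 3 genes of largest absolute log2 fold change and up to 2 of highest mean per list, the 3 nearest profiles, the 3 measured neighbours on each side (1 of them is not reported here) and close relatives. Other list genes and PSMD1 were named after their values were seen. Alternatives covered the pseudocount, the filter, scaling, the variance prior, library weights, the replicate block and leaving out each library.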

Additional observations from a re-analysis of the deposited data

How the results depend on the processing

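ECM1 stayed lower, RAB31 stayed higher and neither passed limma under every alternative that could be run. ECM1 was under the minimum mean of 5 FPKM and had no value there. Leaving out each library in turn, the log2 fold change ranged from -0.81 to -0.64 for ECM1, from 1.39 to 3.11 for RAB31 and from -0.16 to 0.31 for HTR2B, which turned negative without resistant replicate 1 (-0.16). Across alternatives the limma adjusted p ran from 0.079 to 0.809 for ECM1, from 0.0746 to 0.476 for RAB31 and from 0.232 to 0.999 for HTR2B. Over all genes, 5 were called higher and 1 lower. The higher count was 3 with a pseudocount of 0.1, median-of-ratios scaling, quantile normalization or library weights. Leaving out a library gave 0 to 19 higher and 0 to 13 lower calls, with 0 higher and 0 lower without resistant replicate 2 (1031 and 1164 at an unadjusted p under 0.05) and 0 higher without resistant replicate 1 (1107 unadjusted). Scaling to the classifier control genes, added after the data were seen, gave 0 higher and 0 lower (846 and 546 unadjusted) and moved the median log2 fold change of all genes from -0.079 to 0.073. The cause of these shifts was not tested. With the replicate number as a block, 4 genes were called higher and 1 lower. The log2 fold changes of the measured class 2 genes kept their direction there, and their limma adjusted p stayed above 0.05. Same-numbered libraries did not deviate together (correlation across genes -0.0709), so the numbers were not taken to pair them. Depth is unknown, so the counting error behind low values, such as RAB31 at 0.824 FPKM in parental replicate 2, could not be given.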
